A study of Mus musculus with 8 samples.

Results

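Together, 9 genes were followed here that describe how a lymphocyte leaves or stays in an organ: the Krüppel-like factors *Klf2*, *Klf3*, *Klf6* and *Klf13*, the sphingosine-1-phosphate (S1P) receptors *S1pr1*, *S1pr4* and *S1pr5*, the integrin subunit *Itgb7* and the retention receptor *Cd69*. They were chosen by symbol, with earlier results of these data known, as 9 of the 48321 gene symbols in the count files. All 9 were among the 12595 genes that passed a filter on low counts. The samples were 8 RNA-seq libraries of mouse natural killer (NK) cells of the strain labelled C57/Bl6, freshly sorted as CD45+ TCRb- NK1.1+ cells from lung or spleen. The genotype was WT or KO, where KO stands for Ccl5ΔPE/ΔPE mice, which lack *Ccl5-PE*, the proximal enhancer of the chemokine gene *Ccl5*, through a CRISPR deletion in the germ line and so in every cell of the body. Each of the 4 groups (WT lung, KO lung, WT spleen and KO spleen) had 2 libraries. No age is given in the labels and no treatment separated the groups. Whether the 2 libraries of each group are from different mice was not stated, so the p-values below measure the spread between these libraries, which may be technical.

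S1P is kept high in blood and lymph and low inside tissues, and lymphocytes that carry S1P receptors follow this gradient out of an organ. KLF2 is a zinc-finger transcription factor known for switching on *S1pr1* and homing receptors in T cells, while CD69 binds S1PR1 at the membrane and takes it off the surface, which holds a cell in place. In NK cells S1PR5 is the receptor best known for exit from bone marrow and lymph nodes, and its gene depends on the T-box factor T-bet (*Tbx21*). ITGB7 pairs with an alpha chain to form integrins that bind MAdCAM-1 or E-cadherin.

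The labels were first checked against the counts. *Ccl5* lay at 19518 and 18350 CPM in WT lung and at 16679 and 15664 CPM in WT spleen, against 2992 and 3195 CPM in KO lung and 2676 and 2432 CPM in KO spleen (CPM, counts scaled to a common library size). The reads counted on genes numbered 3132963 to 26482366 in a library, the deepest being the second KO spleen library, and a floor of 3 reads stood for 0.113 to 0.958 CPM, counting error only. The 10 NK cell markers were all detected, with a summed level of 50804 to 52340 CPM in WT lung, 40493 to 40874 in KO lung, 37084 to 37659 in WT spleen and 48138 to 50429 in KO spleen. Of the 10, 2 were higher and 6 lower in KO lung (29.2% and 26.4% of all genes tested). In KO spleen 8 were higher and 2 lower (28.2% and 28.9%). *Gzma* and *Nkg7* made up most of the sum, with means of 24832 and 12934 CPM in WT lung and 18000 and 9087 in KO lung. *Prf1* and *Il2rb* went the other way, from means of 1509 and 336 CPM in WT lung to 2515 and 773 in KO lung. The part of these marker differences in the members' differences was not tested. The lung libraries held lung surfactant transcripts that the spleen libraries lacked, since *Sftpc* was at 152 to 282 CPM in lung and at 0 in all 4 spleen libraries. In sorted cells measured in bulk, fewer cells of a type and less RNA per cell cannot be told apart.

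*Klf2* had the largest KO effect of the 9 genes in each organ (in lung that of *S1pr4* was within its standard error of it, and above it once the trend with GC content was removed, 0.82 against 0.77 on the log2 scale), and it moved in opposite directions in the 2 organs. The gene (ENSMUSG00000055148) lies on chr8:72319033-72321656 of GRCm38, plus strand. Its promoter window is shown because 2 kinds of factor treated here, the KLF family and the MEF2 factors that relay ERK5 signalling to *Klf2*, have their recognition letters in it, and the window of *S1pr5* is set beside it for the KLF letters. Both are RefSeq sequences of build GRCm38.p6, 250 bases before to 50 bases after RefSeq's gene start, 5′ to 3′ on the gene's strand. For *Klf2* this start lies inside the gene range given above, which comes from GENCODE. Capitals mark CACCC or its reverse complement GGGTG (the KLF core) and, in *Klf2*, CTA and TAG with 4 bases of any kind between them (MEF2). The *Klf2* window is chr8:72318812-72319111 (plus strand) and that of *S1pr5* is chr9:21248394-21248693 (minus strand).
Klf2: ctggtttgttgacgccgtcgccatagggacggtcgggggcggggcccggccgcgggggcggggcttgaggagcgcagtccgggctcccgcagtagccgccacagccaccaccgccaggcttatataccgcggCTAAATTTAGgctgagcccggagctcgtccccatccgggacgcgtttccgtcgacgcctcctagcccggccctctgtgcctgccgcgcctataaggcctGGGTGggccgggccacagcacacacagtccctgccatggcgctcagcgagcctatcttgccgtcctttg
S1pr5: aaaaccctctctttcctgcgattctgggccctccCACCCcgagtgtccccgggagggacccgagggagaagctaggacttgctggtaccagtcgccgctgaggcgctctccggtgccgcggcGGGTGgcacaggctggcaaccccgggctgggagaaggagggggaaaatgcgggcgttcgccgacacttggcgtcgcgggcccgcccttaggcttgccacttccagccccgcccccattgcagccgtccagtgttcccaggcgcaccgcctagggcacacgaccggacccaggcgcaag
Of the 9 genes, 7 had a promoter window (all but *S1pr1* and *Cd69*). The KLF core was present in 6 of these 7 windows, with *Klf6* as the exception, and in 57.5% of all 32851 windows of this length. The MEF2 letters were found in *Klf2* alone of the 7, against 3.69% of all windows, and the FOXO letters GTAAACA (or TGTTTAC) in none of the 7, against 3.65% of all windows. These are matches of letters on either strand and not measured sites.

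In lung, *Klf2* was at 239 and 230.0 CPM in WT and at 538 and 547 CPM in KO. In spleen it was at 489 and 453 CPM in WT and at 185 and 180.1 CPM in KO. Both KO libraries thus lay above both WT libraries in lung and below them in spleen, and no group overlapped another in the order KO spleen, WT lung, WT spleen, KO lung. The level in KO was 2.31-fold higher in lung (log2 fold change 1.21 ± 0.05 SE, n = 2 against 2, adjusted p = 1.2e-22) and 2.58-fold lower in spleen (-1.37 ± 0.05, adjusted p = 2.7e-24) by edgeR's quasi-likelihood F test, with p-values adjusted by Benjamini-Hochberg across the 12595 genes tested. The *Klf2* transcript is rich in G and C (61.6%). With the trend of each library with GC content removed, the log2 fold change was 0.77 in lung and -0.96 in spleen, still past the threshold in both.

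The other KLF members moved less. *Klf3*, which encodes a repressor of the family that competes for KLF sites (chr5:64803388-64832901, plus strand), was at 199.5 and 207 CPM in WT lung, 234 and 227 in KO lung, 245.5 and 245.7 in WT spleen and 188 and 185 in KO spleen. It had the same direction as *Klf2* in each organ at a smaller size, with a log2 fold change of 0.19 ± 0.05 SE in lung (adjusted p = 0.0016, edgeR) and -0.40 ± 0.05 in spleen (adjusted p = 2.9e-09). The lung call of *Klf3* was lost without the first WT lung library (adjusted p = 0.0774). *Klf3* shares 404 exonic bases with *Gm20033* on the other strand, which had 33 to 281 reads, against 577 to 4835 for *Klf3*, and the strand setting of the counting was not given.

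*Klf6*, an early-response member induced by activation and injury (chr13:5861482-5870394, plus strand), differed mainly by organ. It lay at 914 and 943 CPM in WT lung and 1049.6 and 1035 in KO lung, against 503 and 489 in WT spleen and 459.6 and 472 in KO spleen. In lung the log2 fold change of KO over WT was 0.17 ± 0.04 SE (adjusted p = 0.00016, edgeR), against -0.08 ± 0.04 in spleen (adjusted p = 0.0801), and the spleen value passed the threshold once the GC trend was removed (-0.16, adjusted p = 0.0004).

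*Klf13*, known in T cells as a late activator of the *Ccl5* promoter itself (chr7:63886351-63938915, minus strand), was the member that moved least. Its level was 546 and 555 CPM in WT lung, 533 and 528 in KO lung, 595 and 587 in WT spleen and 539.6 and 582 in KO spleen. Neither KO effect passed the threshold (log2 fold changes -0.05 ± 0.04 in lung and -0.06 ± 0.04 in spleen, adjusted p = 0.283 and 0.215, edgeR). With the GC trend removed, the values were -0.29 in lung and 0.16 in spleen, both past the threshold, and unscaled library totals gave 0.039 in lung, so the direction of *Klf13* depended on the setting.

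**Figure D1:**
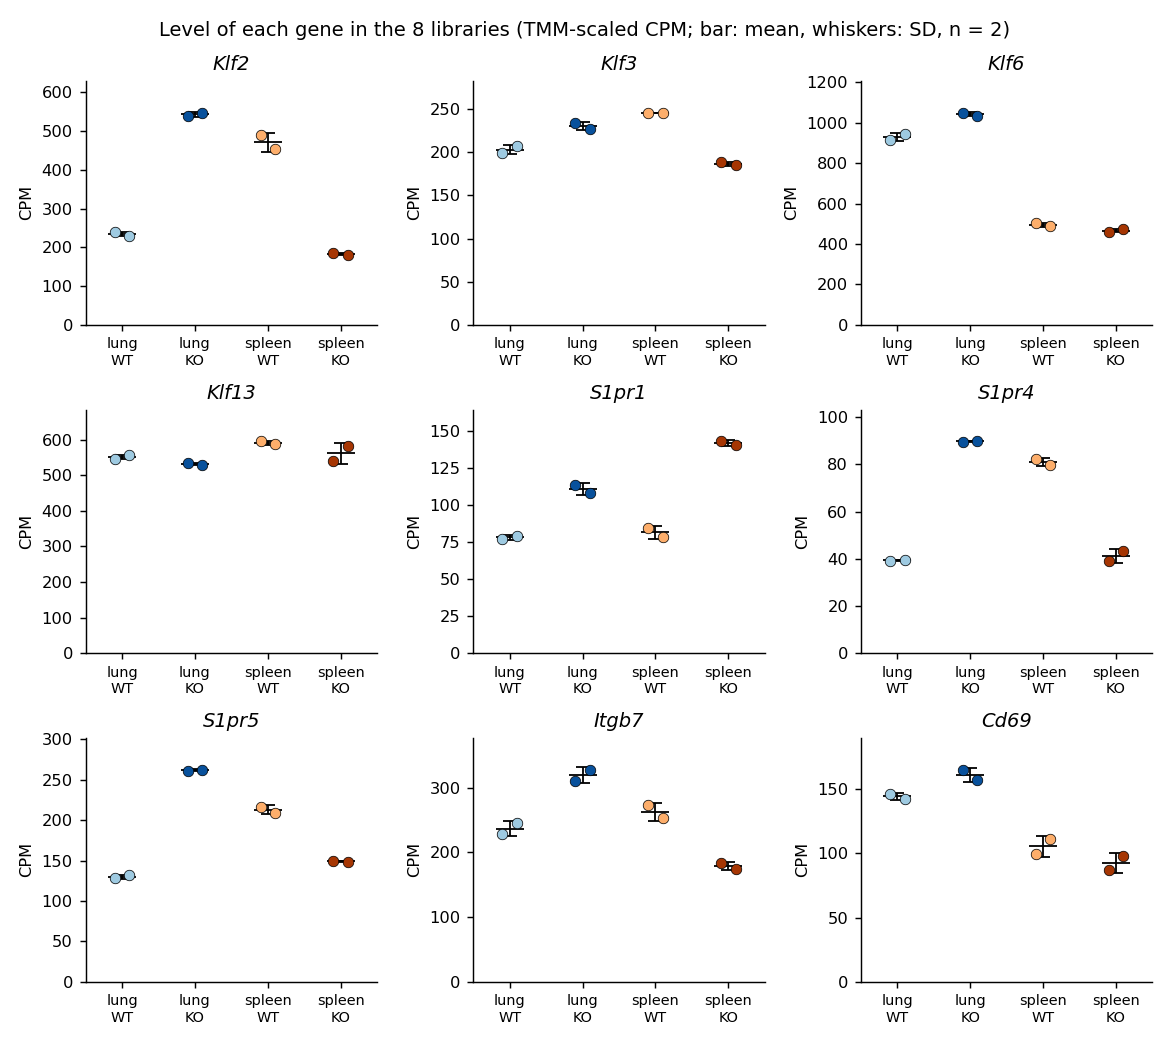
Level of each of the 9 genes in the 8 libraries, in TMM-scaled CPM on a linear axis from 0, with 1 panel per gene, points for libraries, horizontal bars for group means and whiskers for the SD (n = 2). *Klf2*, *S1pr4* and *S1pr5* were highest in KO lung and next highest in WT spleen, *S1pr1* was highest in KO spleen (143 and 141 CPM), and *Klf6* and *Cd69* were higher in lung than in spleen in both genotypes.

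Of the S1P receptors, *S1pr4* and *S1pr5* went up in KO lung and down in KO spleen, like *Klf2*, whereas *S1pr1* was higher in KO in both organs. *S1pr4* encodes a receptor largely restricted to blood cells. The gene (chr10:81497747-81500132, minus strand) was at 39.3 and 39.6 CPM in WT lung, 89.7 and 89.8 in KO lung, 82.2 and 79.8 in WT spleen and 39.2 and 43.4 in KO spleen. The libraries of WT lung and KO spleen overlapped, and those of all other pairs of groups were apart. Its level in KO was 2.28-fold higher in lung (log2 fold change 1.19 ± 0.08 SE, adjusted p = 3.4e-15, edgeR) and 1.89-fold lower in spleen (-0.92 ± 0.07, adjusted p = 1.3e-13), with GC-adjusted log2 values of 0.82 and -0.58.

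*S1pr5*, the exit receptor of NK cells (chr9:21242912-21248443, minus strand), was at 128 and 132 CPM in WT lung and at 261 and 262 CPM in KO lung, 2.02-fold higher (log2 fold change 1.02 ± 0.05 SE, adjusted p = 1.2e-18, edgeR). In spleen it was at 217 and 209 CPM in WT and at 149 and 149 CPM in KO, 1.42-fold lower (-0.51 ± 0.05, adjusted p = 3.1e-11). No libraries of different groups overlapped. *S1pr5* shares 51 exonic bases with *Gm48303* on the other strand. Its GC-adjusted log2 values were 0.72 in lung and -0.24 in spleen, the latter less than its unadjusted value by over 1.5 times.

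*S1pr1*, the receptor through which KLF2 is best known to drive exit of T cells (chr3:115710433-115715072, minus strand), was at 77.1 and 79.5 CPM in WT lung and at 114 and 108 CPM in KO lung. In spleen it was at 84.7 and 78.6 CPM in WT and at 143 and 141 CPM in KO. The WT libraries of the organs overlapped, and each KO group lay above both. The difference was 1.42-fold in lung (log2 fold change 0.51 ± 0.07 SE, adjusted p = 4.9e-08, edgeR) and 1.75-fold in spleen (0.81 ± 0.06, adjusted p = 5.3e-14), and removing the GC trend left 0.50 and 0.81. In KO spleen, then, *S1pr1* was higher by 1.75-fold in the same libraries in which *Klf2* was lower by 2.58-fold.

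Levels of different genes were compared per kilobase of exon. Within each library the 5 S1P receptor genes were taken as 100%, and their make-up is a description of these libraries. *S1pr5* was the largest part in every group, at 54.6% ± 0.18 (SD, n = 2) in WT lung, 57.8% ± 0.54 in KO lung, 57.8% ± 0.13 in WT spleen and 47.7% ± 0.28 in KO spleen. The share of *S1pr1* was 27.0% ± 0.15 in WT lung, 20.2% ± 0.62 in KO lung, 18.2% ± 0.44 in WT spleen and 37.3% ± 0.64 in KO spleen, so KO spleen stood apart by its *S1pr1* part and its smaller *S1pr4* part (13.9% ± 0.96, against 17.4% to 23.0% in the other groups). *S1pr2*, a receptor that works against migration, and *S1pr3* were minor, with group means of 0.74% to 1.08% for *S1pr2* and at most 0.19% for *S1pr3*. The ratio of *Klf2* to *S1pr1* per kilobase was 4.94 ± 0.24 in WT lung, 8.05 ± 0.38 in KO lung, 9.51 ± 0.01 in WT spleen and 2.12 ± 0.01 in KO spleen.

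Among the 4 KLF members, taken as 100% in the same way, *Klf6* led in WT lung (49.2% ± 0.78) with *Klf2* second (29.5% ± 0.95), and *Klf2* led in KO lung (47.2% ± 0.53) and WT spleen (54.4% ± 0.98). In KO spleen, *Klf6* (35.8% ± 0.20) and *Klf2* (33.4% ± 1.1) were closest. *Klf3* held 3.3% to 5.6% and *Klf13* 11.3% to 25.2% of this total. Per kilobase, *Klf2* was at 127, 294, 255 and 98.9 CPM in WT lung, KO lung, WT spleen and KO spleen, and *Klf6* at 211, 237, 113 and 106 CPM.

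**Figure D2:**
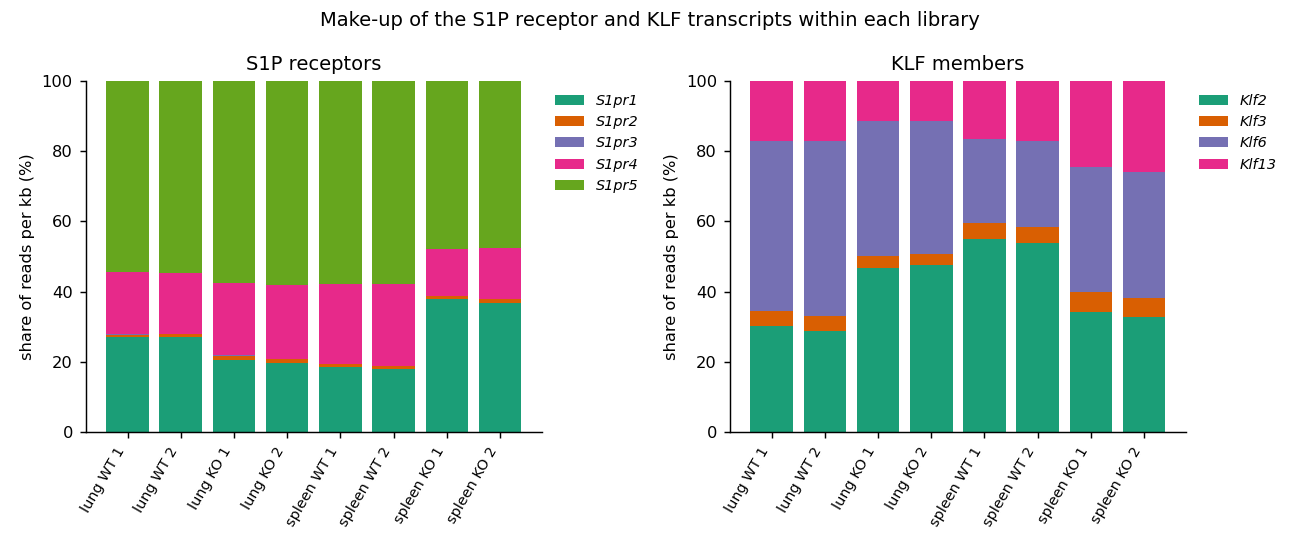
Share of reads per kilobase of exon, in percent, among the 5 S1P receptor genes (left) and among the 4 KLF members (right), with 1 stacked bar for each of the 8 libraries. The *S1pr1* part was widest in the KO spleen bars (37.8% and 36.9%), and the *Klf2* part was widest in the WT spleen bars (55.1% and 53.7%).

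*Itgb7* and *Cd69* stand for adhesion and retention. *Itgb7* (chr15:102215995-102231944, minus strand) was at 228 and 246 CPM in WT lung, 311 and 328 in KO lung, 273 and 253 in WT spleen and 183 and 175 in KO spleen. It rose in KO lung (log2 fold change 0.44 ± 0.05 SE, adjusted p = 1.4e-09, edgeR) and fell in KO spleen (-0.56 ± 0.05, adjusted p = 6.2e-12), without overlap of libraries. The GC-adjusted values were 0.12 (adjusted p = 0.0219) and -0.26, each under the unadjusted value by over 1.5 times.

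*Cd69* (chr6:129267325-129275436, minus strand) was at 146 and 142 CPM in WT lung, 165 and 157 in KO lung, 99.7 and 111 in WT spleen and 87.2 and 98.1 in KO spleen. The log2 fold change of 0.15 ± 0.06 SE in lung (adjusted p = 0.0335, edgeR) and of -0.16 ± 0.06 in spleen (adjusted p = 0.0271) stood just past the threshold. Both calls were lost with DESeq2 (adjusted p = 0.221 and 0.182), the lung call without any of the lung libraries but the second KO (adjusted p = 0.0994 to 0.147), and the spleen call without the second WT library (adjusted p = 0.658) or the first KO library (adjusted p = 0.0897). The *Cd69* transcript is poor in G and C (38.5%), and its GC-adjusted log2 values were larger, 0.41 in lung and -0.34 in spleen.

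Counted over the 9 genes, 8 were higher and 0 lower in KO lung at an adjusted p under 0.05, against 29.2% of all genes tested that were higher and 26.4% that were lower, and their median log2 fold change was 0.44 against 0.02 over all genes tested. The spleen count was 1 higher and 6 lower in KO, against 28.2% and 28.9% of all genes, with a median of -0.40 against 0 over all genes. The KO and WT libraries did not overlap for any of the 9 in either organ, as for 76% of all genes in lung and 73.8% in spleen. The genes *Klf2*, *Klf3*, *S1pr4*, *S1pr5*, *Itgb7* and *Cd69*, 6 of the 9, were higher in KO lung and lower in KO spleen, a pattern held by 14.2% of all genes tested, and *S1pr1* was the 1 member higher in KO in both organs, a pattern held by 4.15%. A log2 fold change of at least 1 was reached by 3 members in lung (*Klf2*, *S1pr4* and *S1pr5*; 8.88% of all genes were higher by that much) and by *Klf2* in spleen (6.57% of all genes were lower by that much). Once the GC trend was removed, 0 members reached it in either organ. The libraries of a group lay very close, with a common coefficient of variation of 2.50% over all genes. With a coefficient of variation of 0.2 assumed instead, the KO calls that remained were *Klf2*, *S1pr4* and *S1pr5* in lung and *Klf2* and *S1pr4* in spleen.

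The difference between the KO effects of the 2 organs was tested as an interaction term. It passed the threshold in 8 of the 9 genes, against 61.6% of all genes tested. It was higher in lung for 7 (32.5% of all genes) and lower for *S1pr1* (29% of all genes). On the log2 scale it was 2.57 ± 0.06 SE for *Klf2* (adjusted p = 1.7e-28, edgeR), 2.1 ± 0.11 for *S1pr4* (adjusted p = 3.4e-19) and 1.53 ± 0.07 for *S1pr5* (adjusted p = 3.3e-20). With the GC trend removed, these were 1.73, 1.40 and 0.97. With a spread of 0.2 assumed as above, these 3 differences were the ones that remained past the threshold. The difference was 1.01 ± 0.07 for *Itgb7*, 0.59 ± 0.07 for *Klf3*, 0.31 ± 0.09 for *Cd69* and 0.25 ± 0.05 for *Klf6*. Removing the GC trend gave 0.38 for *Itgb7*, 0.74 for *Cd69* and 0.40 for *Klf6*, each away from the unadjusted value by over 1.5 times, and the call of *Cd69* was lost without the second WT spleen library (0.20, adjusted p = 0.0984). For *S1pr1* it was -0.30 ± 0.09 (adjusted p = 0.0045), a rise in both organs that was smaller in lung, and this call was lost with DESeq2 (adjusted p = 0.0545), with unscaled library totals (0.194) and without the second WT spleen library (0.0785). For *Klf13* it was 0.01 ± 0.06 (adjusted p = 0.958), and -0.46 with the GC trend removed.

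**Figure D3:**
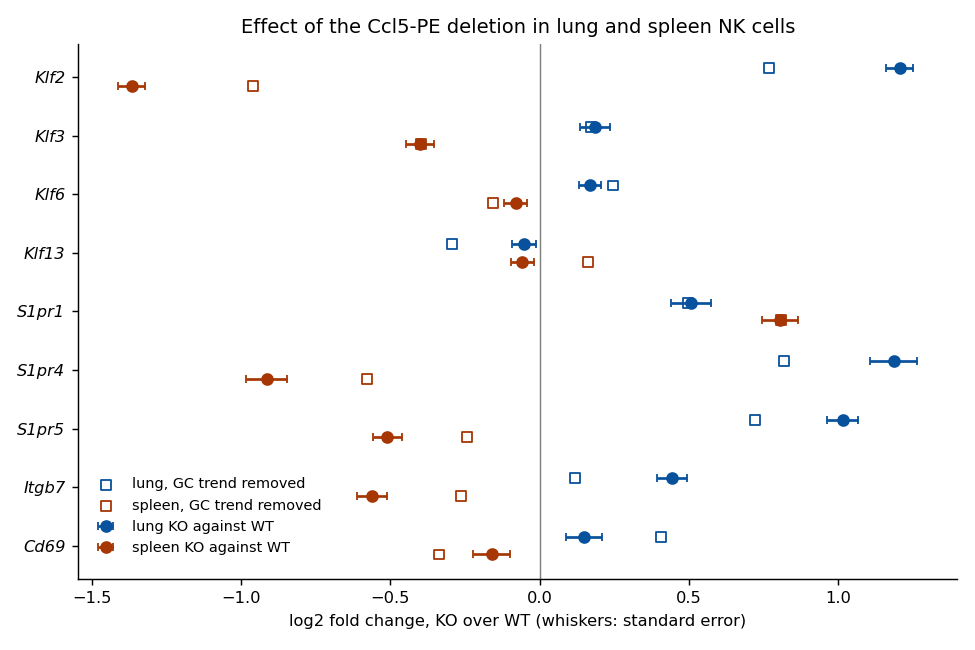
Log2 fold change of KO over WT for the 9 genes in lung (blue) and spleen (brown), with filled points and whiskers for the estimate and its standard error and open squares for the value after removal of each library's GC trend. *S1pr1* lay to the right of 0 in both organs (0.51 and 0.81), *Klf2*, *S1pr4* and *S1pr5* lay to the right in lung and to the left in spleen under both settings, and *Klf13* changed sides in spleen (-0.06 and 0.16).

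Read across organs, the same values gave a lung-spleen difference of opposite sign in WT and KO for *Klf2*, *Klf3*, *S1pr4*, *S1pr5* and *Itgb7*. The WT value of *Itgb7* did not hold under all settings. How many of all genes tested had such a turn was not counted, and the difference of KO effects passed the threshold in 61.6% of them. In WT, lung was below spleen for *Klf2* (log2 fold change of lung over spleen -0.99 ± 0.05 SE, adjusted p = 2.5e-20, edgeR), *S1pr4* (-1.03 ± 0.08), *S1pr5* (-0.71 ± 0.05), *Klf3* (-0.28 ± 0.05), *Itgb7* (-0.15 ± 0.05) and *Klf13* (-0.10 ± 0.04). In KO, lung was above spleen for *Klf2* (1.58 ± 0.04, adjusted p = 9.8e-28), *S1pr4* (1.07 ± 0.07), *S1pr5* (0.81 ± 0.05), *Itgb7* (0.85 ± 0.05) and *Klf3* (0.31 ± 0.05). *Klf6* (0.91 ± 0.04 in WT and 1.16 ± 0.04 in KO) and *Cd69* (0.44 ± 0.06 and 0.74 ± 0.06) were higher in lung in both genotypes. Removing the GC trend moved *Cd69* between WT organs to 0.16, *S1pr5* there to -0.47, and *S1pr4*, *S1pr5* and *Itgb7* between KO organs to 0.66, 0.50 and 0.50, all past the threshold. *S1pr1* did not pass the threshold between WT organs (-0.05 ± 0.07, adjusted p = 0.554) and was lower in lung in KO (-0.35 ± 0.06, adjusted p = 1.1e-06). *Klf13* was also lower in lung in KO (-0.10 ± 0.04, adjusted p = 0.0327), a call that was lost with DESeq2 (0.128), with library totals (0.386), with a filter of 10 counts in every library (0.0721) and without the second WT lung library, either KO lung library or the second KO spleen library (-0.02, adjusted p = 0.825, in the last case). It was -0.34 with the GC trend removed.

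In all, 2 members were higher and 6 lower in WT lung than in WT spleen (27.7% and 29.3% of all genes tested), while KO lung lay above KO spleen for 7 members and below it for 2 (33.9% and 31.7%). The count between WT organs was 4 higher and 4 lower with the GC trend removed, beside 3753 higher and 3368 lower of all 12595 genes. The 2 smallest called differences between WT organs did not hold under all settings. That of *Itgb7* was lost with DESeq2 (adjusted p = 0.131), without the first WT lung library (log2 value -0.07) or without the first WT spleen library (-0.11). It turned to 0.12 with the GC trend removed. That of *Klf13* was lost with DESeq2 (adjusted p = 0.193), and in edgeR with RLE scaling (0.0730) or only the libraries of the comparison (0.0564). It was also lost without any 1 of the 4 WT libraries (log2 values -0.114 to -0.072) or without the second KO spleen library (-0.09), and turned to 0.11 with the GC trend removed. The 5 comparisons share libraries, so these values are not independent of the KO effects above.

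**Figure D4:**
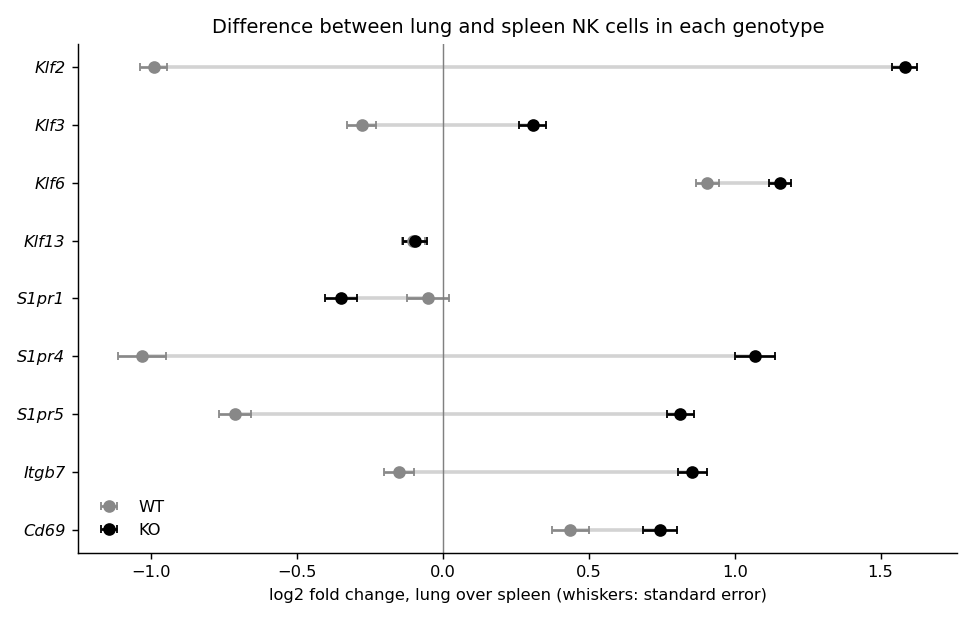
Log2 fold change of lung over spleen for the 9 genes in WT (grey) and KO (black), with whiskers for the standard error and a pale bar joining both values of a gene. *Klf2*, *Klf3*, *S1pr4*, *S1pr5* and *Itgb7* lay below 0 in WT and above 0 in KO, while *Klf6* and *Cd69* lay above 0 and *Klf13* and *S1pr1* below 0 in both.

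Other genes of the same pathways were read from lists. Of 13 further KLF genes, 7 were expressed enough to be tested, and in KO lung 4 were higher and 2 lower, in KO spleen 1 higher and 3 lower, with median log2 fold changes of 0.575 and -0.39 beside 0.02 and 0 over all genes tested. Of all genes tested, 29.2% were higher and 26.4% lower in KO lung, and 28.2% and 28.9% in KO spleen. *Klf9*, *Klf10* (an early-response gene of TGF-beta signalling) and *Klf11* had the directions of *Klf2*, with log2 fold changes of 1.18 ± 0.14, 0.72 ± 0.06 and 1.37 ± 0.16 SE in lung and of -0.99 ± 0.15, -0.39 ± 0.05 and -0.71 ± 0.12 in spleen. *Klf4*, a close relative of *Klf2* that endothelial and myeloid cells express, was at most at 28 reads in any library, and *Klf1*, *Klf14* and *Klf17* were at 0 in all libraries.

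Of 20 genes that make, break down, carry or relay S1P (19 of them in the files), 14 were tested. The lung count was 10 higher and 2 lower in KO, and the spleen count 1 higher and 8 lower, with median log2 fold changes of 0.43 and -0.29 (*Plpp3* was at 0 in all spleen libraries). Over all genes tested, 29.2% were higher and 26.4% lower in KO lung, and 28.2% and 28.9% in KO spleen. With the GC trend removed, the list's counts were 6 higher and 5 lower in lung and 2 higher and 4 lower in spleen. Of all 12595 genes, 3327 were then higher and 3451 lower in lung, and 3710 and 3330 in spleen. The genes with the smallest p were *Sgpl1*, the lyase that degrades S1P, *Sgpp1*, a phosphatase that removes its phosphate, and *Coro1a*, an actin regulator whose loss impairs exit of lymphocytes from lymphoid organs. *Sgpl1* was at 46.0 and 43.0 CPM in WT lung, 95.6 and 98.4 in KO lung, 98.9 and 97.8 in WT spleen and 48.0 and 52.0 in KO spleen, with WT lung and KO spleen low and the other groups high, as for *S1pr4*. Its log2 fold changes were 1.11 ± 0.08 SE in lung and -0.94 ± 0.07 in spleen, those of *Sgpp1* 0.89 ± 0.08 and -0.92 ± 0.07, and those of *Coro1a* 0.59 ± 0.04 and -0.56 ± 0.04, the last moving to 0.26 and -0.26 with the GC trend removed.

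Of 18 homing and residency genes, all of them tested, KO was above WT for 10 and below it for 5 in lung (median log2 fold change 0.24), and above it for 8 and below it for 7 in spleen (median -0.06), beside the 29.2% and 26.4% of all genes in lung and the 28.2% and 28.9% in spleen. With the GC trend removed, these counts were 11 and 5 in lung and 4 and 7 in spleen, beside 3327 and 3451 of all 12595 genes in lung and 3710 and 3330 in spleen. *Selplg*, the ligand of P-selectin, was higher in KO lung (0.51 ± 0.04) and lower in KO spleen (-0.50 ± 0.04), with GC-adjusted values of 0.32 and -0.33. *Cx3cr1*, the fractalkine receptor of mature NK cells, was higher in KO lung (0.84 ± 0.06) and lower in KO spleen (-0.35 ± 0.06). *Itgb2*, the beta chain of LFA-1, was higher in KO lung (0.41 ± 0.04, GC-adjusted 0.26) and lower in KO spleen (-0.58 ± 0.04). *Ccr2*, a receptor for inflammatory chemokines, was higher in KO lung (0.11 ± 0.04, GC-adjusted 0.34) and in KO spleen (0.41 ± 0.04, GC-adjusted 0.24).

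Of 12 genes known to act on *Klf2* or the S1P receptors, 11 passed the filter, with 2 higher and 2 lower in KO lung and 4 higher and 4 lower in KO spleen (median log2 fold changes 0.025 and -0.20). The shares over all genes tested were 29.2% and 26.4% in lung, and 28.2% and 28.9% in spleen. With the GC trend removed, 1 was higher and 5 lower in lung, and 5 higher and 3 lower in spleen. The counts over all 12595 genes were then 3327 and 3451 in lung, and 3710 and 3330 in spleen. *Tbx21* had the directions of *S1pr5*, at 216 and 221 CPM in WT lung, 478 and 480.1 in KO lung, 341 and 331 in WT spleen and 149.8 and 147 in KO spleen (log2 fold changes 1.13 ± 0.04 and -1.18 ± 0.05 SE). The *Tbx21* transcript is rich in G and C (59.3%). After GC adjustment, 0 of the 11 genes, *Tbx21* included, passed with a log2 change of at least 1 in size in either organ. *Prdm1*, which encodes the residency factor Blimp-1, was lower in KO lung (-0.86 ± 0.12) and higher in KO spleen (0.55 ± 0.12), and so was *Mef2c* (-0.44 ± 0.08 and 0.36 ± 0.06, GC-adjusted -0.30 and 0.24). *Zeb2* was lower in KO spleen (-0.28 ± 0.05), with -0.10 ± 0.05 in lung, which did not pass the threshold. In each list the named genes are those with the smallest p in either organ.

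**Figure D5:**
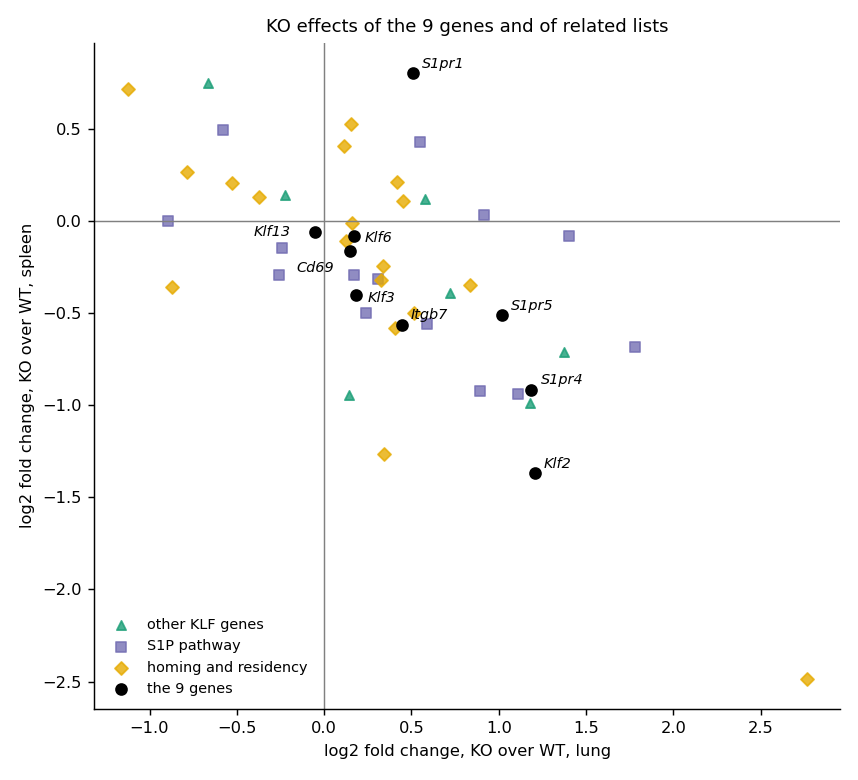
Log2 fold change of KO over WT in lung (horizontal) and in spleen (vertical) for the 9 genes (black, labelled) and for the tested genes of the lists of other KLF genes, S1P pathway and homing and residency genes. *Klf2*, *S1pr4* and *S1pr5* lay at the lower right, *S1pr1* at the upper right, and the point farthest to the lower right (2.76 and -2.48) was *Ccr7*, a gene at no more than 7.83 CPM that was chosen for mention after its values were seen.

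Values of other genes moved with the same groups. Of 23 immediate early and stress genes, which sorting and tissue digestion can induce, 20 were tested, with 15 higher and 1 lower in KO lung, 0 higher and 14 lower in KO spleen, and 20 of 20 higher in KO lung than in KO spleen. The matching shares of all genes tested were 29.2% and 26.4% in KO lung, 28.2% and 28.9% in KO spleen, and 33.9% for KO lung over KO spleen. With the GC trend removed, the list's counts were 15 and 1 in lung, 0 and 11 in spleen, and 19 of 20 between KO organs. Of all 12595 genes, 3327 were then higher and 3451 lower in KO lung, 3710 and 3330 in KO spleen, and 4025 were higher in KO lung than in KO spleen. Their median log2 fold change was 0.66 in lung and -0.64 in spleen. Their summed level was 2295 to 2319 CPM in WT lung, 3635 to 3647 in KO lung, 1557 to 1620 in WT spleen and 1133 to 1157 in KO spleen. The smallest p in lung was that of *Junb*, at 40.7 and 46.6 CPM in WT lung, 189 and 193 in KO lung, 70.2 and 63.0 in WT spleen and 20.6 and 20.9 in KO spleen, and the others named were *Nr4a1* (1.90 ± 0.08 SE on the log2 scale) and *Dusp1* (1.02 ± 0.05) in lung, and *Jund* (-1.97 ± 0.08) and *Ier2* (-0.89 ± 0.05, GC-adjusted -0.50) in spleen. *Klf2*, *Klf6* and *Cd69* are themselves known to respond to stimulation of a cell, and the part of such a response in their differences was not tested.

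Markers of other cells were present and were not the same in all groups. The 12 epithelial and stromal markers summed to 259 to 262 CPM in WT lung, 370 to 409 in KO lung and 0.326 to 1.29 in spleen. The 10 endothelial markers, from cells that express *Klf2* and *S1pr1* themselves, summed to 83.2 to 90.9 CPM in WT lung, 120 to 126 in KO lung and 65.9 to 75.8 in spleen. *Pecam1*, which leukocytes also express, made up nearly all of the spleen sum and was the largest part of the lung sum. In lung *Pecam1* was at 60.7 and 57.5 CPM in WT and at 80.2 and 78.2 CPM in KO. Of the 8 endothelial markers tested, 4 were higher and 0 lower in KO lung (4 and 1 with the GC trend removed). The shares over all genes tested were 29.2% and 26.4% (3327 and 3451 of 12595 genes with the GC trend removed). *Cldn5*, a junction gene of endothelium, was at 6.46 and 2.59 CPM in WT lung and 11.9 and 12.2 CPM in KO lung. *Cdh5*, another defining endothelial gene, was at 9.45 and 8.55 CPM in WT lung and 4.71 and 7.75 CPM in KO lung, and *Cdh5* and *Cldn5* were at 0 in all 4 spleen libraries. The 10 T cell markers summed to 357 to 384 CPM in lung and 498 to 513 in spleen, the 8 B cell markers to 6.48 to 9.66 and 44.1 to 51.1, and the 12 myeloid markers, 5 of them at 0 in every library, to 35.3 to 41.9 and 20.7 to 27.7. *Lat* and *Cd28* made up most of the T cell sum, while *Cd3e*, a defining T cell gene, was at 32.0 and 32.5 CPM in WT spleen and 7.51 and 11.1 CPM in KO spleen (log2 fold change -1.60 ± 0.12 SE). The other CD3 genes of the list did not share a difference of this size. *Cd3d* was at 59.2 and 62.3 CPM in WT spleen and 72.1 and 64.4 CPM in KO spleen. *Cd3g* was at 61.4 and 60.9 CPM in WT spleen and 57.5 and 55.3 CPM in KO spleen. In lung *Cd3e* was at 6.35 to 7.71 CPM. The 9 ILC1 markers summed to 144 to 145 CPM in WT lung, 95.8 to 97.0 in KO lung, 196 to 214 in WT spleen and 183 to 192 in KO spleen. The part of these cells in the members' differences was not tested.

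The genes whose log2 CPM followed a member most closely were taken from 5103 genes with a mean log2 CPM above 5, by Pearson's r over the 8 libraries, which share 4 group means and so give a description only. For *Klf2* these were *Letm1* (r = 0.996), *Cyth4* (0.996) and *B4galnt1* (0.995), for *S1pr5* they were *Plcg2* (0.995), *Sqstm1* (0.993) and *Slc35a4* (0.993), and for *Cd69* they were *Fgl2* (0.990), *Elmo1* (0.989) and *Plek* (0.988). Among the members themselves, r was 0.968 between *Klf2* and *S1pr4*, 0.920 between *Klf2* and *S1pr5*, 0.974 between *S1pr4* and *S1pr5*, 0.969 between *Klf6* and *Cd69*, and -0.32 between *Klf2* and *S1pr1*.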

How the data were processed

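RNA was sequenced in 8 libraries of sorted NK cells with reads of 50 bases. The authors aligned the reads to mm10 (GRCm38) with HISAT2 2.1.0, counted them with HTSeq 0.11.1 (versions per the submitters' processing notes) and deposited the unnormalized count of reads for each symbol. The gene annotation and strand setting are not given in the sources used here. Alignment and counting stand as deposited. Of the uniquely aligned reads, 44.3% to 46.6% were counted on a gene, and HTSeq's categories of uncounted reads were left out of library sizes.

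Groups came from the sample titles. The analysis ran in R 4.3.3 and used edgeR 4.0.16: filterByExpr, TMM scaling (factors 0.954 to 1.03), 1 mean per group over all 8 libraries, the quasi-likelihood F test and Benjamini-Hochberg adjustment over all 12595 genes at a threshold of 0.05. Standard errors were derived from the F statistic. CPM used TMM-scaled library sizes. An exact permutation test of 2 against 2 libraries cannot give a p below 0.333 and was not used. Replicates differed beyond counting noise (variance 1.34 to 1.97 times that of counting), so no library was counted once for 2. The procedure was tested on simulated data drawn with a coefficient of variation near the 2.50% estimated from these libraries. That test could not show how the calls hold if separate mice differ more.

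Positions, exonic lengths and GC shares of genes were read from GENCODE M21 (GRCm38), and promoters from RefSeq (GRCm38.p6). Genes named beside the members are the 3 with the smallest p per list and organ and the 3 most alike in pattern to *Klf2*, *S1pr5* and *Cd69*. Of these, 1 gene is not reported here. The members and lists were chosen with earlier results of these data known. Alternatives were DESeq2 1.42.0, the likelihood ratio test, other scalings (RLE, library totals, upper quartile), other filters (none, or 10 reads or more in each library), the replicate number as a block, an offset for GC content (spline with 5 degrees of freedom), assumed coefficients of variation of 0.1 and 0.2, only the libraries of a comparison, and leaving out each library.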

Additional observations from a re-analysis of the deposited data

Results flagged for a closer look

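Of the 9 genes, 8 had a KO effect in lung that differed from that in spleen by a test of the difference itself (the interaction term of edgeR's quasi-likelihood fit, adjusted over 12595 genes, of which 61.6% passed). Given as the lung effect minus the spleen effect on the log2 scale, the difference was 2.57 for *Klf2*, 2.1 for *S1pr4*, 1.53 for *S1pr5* and 1.01 for *Itgb7*, 0.59 for *Klf3*, 0.31 for *Cd69* and 0.25 for *Klf6*. The first 6 of these were higher in lung KO and lower in spleen KO, and *Klf6* was higher in lung KO (0.17) with a spleen value of -0.08 that did not pass the threshold. With the trend of each library with GC content removed, it was 0.97 for *S1pr5*, 0.38 for *Itgb7*, 0.74 for *Cd69* and 0.40 for *Klf6*, and the call of *Cd69* was lost without the second spleen WT library (0.20, adjusted p = 0.0984). For *S1pr1* the difference was -0.3, with a rise in both organs, and this call was lost with DESeq2, with unscaled library totals and without the second spleen WT library. With 2 libraries per group, no library was tested as standing apart from its group.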

How the results depend on the processing

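Over the 9 genes, 5 comparisons and all alternatives, 847 of the values kept their direction and their side of the threshold, 66 lost the call, 8 gained one and 15 changed direction, and the cause of these changes was not tested except that an assumed coefficient of variation widens the spread by construction. Against 7000 genes called in lung KO against WT, 7195 in spleen, 7185 between WT organs, 8259 between KO organs and 7753 for the difference of KO effects, DESeq2 called 4507 in lung and 4165 in spleen. An assumed coefficient of variation of 0.1 gave 4395, 4112 and 4673 in the first 3, and one of 0.2 gave 1557, 1144, 2011, 2316 and 2017 in the same order. Of the 9 members, 5 were called in lung, between WT organs and for the difference at a coefficient of variation of 0.1 (8 each with the estimated spread), and 3, 3 and 3 at 0.2, with 2 in spleen (7 with the estimated spread).

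With 1 library left out, the genes called ranged from 5097 to 7350 in lung, 4448 to 7493 in spleen, 5427 to 7617 between WT organs, 5684 to 8694 between KO organs and 6352 to 7946 for the difference, and the members called from 6 to 8, 6 to 7, 6 to 8, 8 to 9 and 6 to 8. The lowest spleen count (4448) came from leaving out the second and deepest spleen KO library, and a group left with 1 library was assumed to vary like the others.

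Most changes of direction were those of *Klf13*, whose log2 values lay near 0. They were 0.039 in lung with library totals, 0.16 in spleen with the GC offset (also 0.16 with the replicate block added), 0.11 between WT organs with the GC offset (0.12 with the block), and for the difference of KO effects -0.009 with DESeq2, -0.013 with RLE, -0.011 with upper-quartile scaling, -0.007 without a filter, -0.46 with the GC offset (-0.46 with the block) and -0.031 to 0.072 with 1 library left out. *Itgb7* turned to 0.12 between WT organs with the GC offset (0.12 with the block). Unscaled library totals put the median log2 fold change of all genes at 0.11 in lung, -0.06 in spleen, -0.12 between WT organs, 0.07 between KO organs and 0.19 for the difference (0.02, 0, -0.01, 0.02 and 0.03 with TMM), and moved the genes called higher and lower from 3674 and 3326 to 4419 and 2561 in lung, from 3550 and 3645 to 2968 and 4237 in spleen, from 3495 and 3690 to 2674 and 4579 between WT organs, and from 4099 and 3654 to 4900 and 2819 for the difference.

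Equal replicate numbers were not stated to pair libraries, and the deviations of equally numbered libraries correlated at -0.01 in lung and 0.17 in spleen over 5103 genes. With the replicate number as a block, 6977, 7185, 7135, 8200 and 7764 genes were called in the 5 comparisons, and no member's call changed. Depth limits the shallowest library to a floor of 0.958 CPM, far under the members' levels.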
